A study of Drosophila melanogaster with 12 samples.

Results

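The response to PIG-A knockdown that was common to 2 drivers was measured in RNA from whole fly heads, with all 12 libraries of the series, 6 of knockdown heads and 6 of control heads. The knockdown groups were ELAV-GAL4 crossed to a PIG-A RNAi line (BDSC 62696), which drives the hairpin in neurons, and REPO-GAL4 crossed to the same RNAi line, which drives it in glia. Their controls were ELAV-GAL4 and REPO-GAL4, each crossed to the AttP strain (BDSC 36304), which carries the landing site without a hairpin. Each of the 4 groups had 3 libraries, labelled as biological replicates, and each library held 5 to 10 heads of flies aged 3 to 5 days by the labels, with no treatment. The knockdown libraries were compared with the control libraries with the driver as a separate, additive term, so that each gene received a single knockdown effect over both drivers. Under both drivers every knockdown library carried the RNAi line and every control library the AttP strain, so PIG-A knockdown and any other difference between these stocks cannot be told apart.

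PIG-A encodes the catalytic subunit of the enzyme that adds N-acetylglucosamine to phosphatidylinositol in the membrane of the endoplasmic reticulum (ER), the first step in the synthesis of the glycosylphosphatidylinositol (GPI) anchor. The finished anchor is attached to proteins in the ER and holds them on the outer face of the cell, where many act as receptors, adhesion molecules and enzymes. An RNAi hairpin lowers a transcript only in the cells that express the driver and usually not fully. A whole head holds neurons, glia, photoreceptors, fat body, muscle and other cells, and in such a mixture fewer cells of a type and less RNA per cell cannot be told apart.

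Library totals ranged from 20694850 to 31893782 counts, spread over 11995 to 12528 detected genes. Levels are given as CPM, the counts of a gene scaled to a common library size, and the floor of 3 counts was 0.0941 to 0.145 CPM. The head was identifiable in every library, with elav, which marks neurons, at 95.9 to 129.8 CPM, repo, which marks glia, at 41.0 to 61.2 CPM and the rhodopsin gene ninaE at 14603 to 28504 CPM. The summed level of 12 muscle genes stood at 15544 CPM in neuron knockdown library 3 and 16185 CPM in glia control library 3, against 3179 to 4982 CPM in the other 10 libraries, and the same 2 libraries stood apart on the first principal component. The 9 fat body genes summed to 10178 to 17854 CPM in neuron knockdown heads and 10049 to 10390 CPM in neuron control heads. In glia knockdown heads the same sum was 18341 to 27590 CPM, above all 3 glia control heads at 6559 to 12050 CPM. The sum of 10 photoreceptor genes was 40340 to 59121 CPM in neuron knockdown heads and 58220 to 60209 CPM in neuron control heads, and 45730 to 51130 CPM in glia knockdown heads and 50963 to 61180 CPM in glia control heads. The methods describe male flies, yet the yolk protein gene Yp1, a female marker, stood at 16942 to 82850 CPM in all 12 libraries, and lncRNA:roX2, which is abundant in males, at 0 to 0.199 CPM. Of 5 tested female markers, 4 were higher in knockdown heads under both drivers and 1 was lower under both (log2 fold change −0.62). At an unadjusted p under 0.05, 4 were higher and 1 lower (8.45 and 6.29% of all genes tested). The medians of the 5 on the log2 scale were 0.89 under the neuron and 0.64 under the glia driver. The part of these tissues and of the sex of the flies in the results below was not tested.

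**Figure D1:**
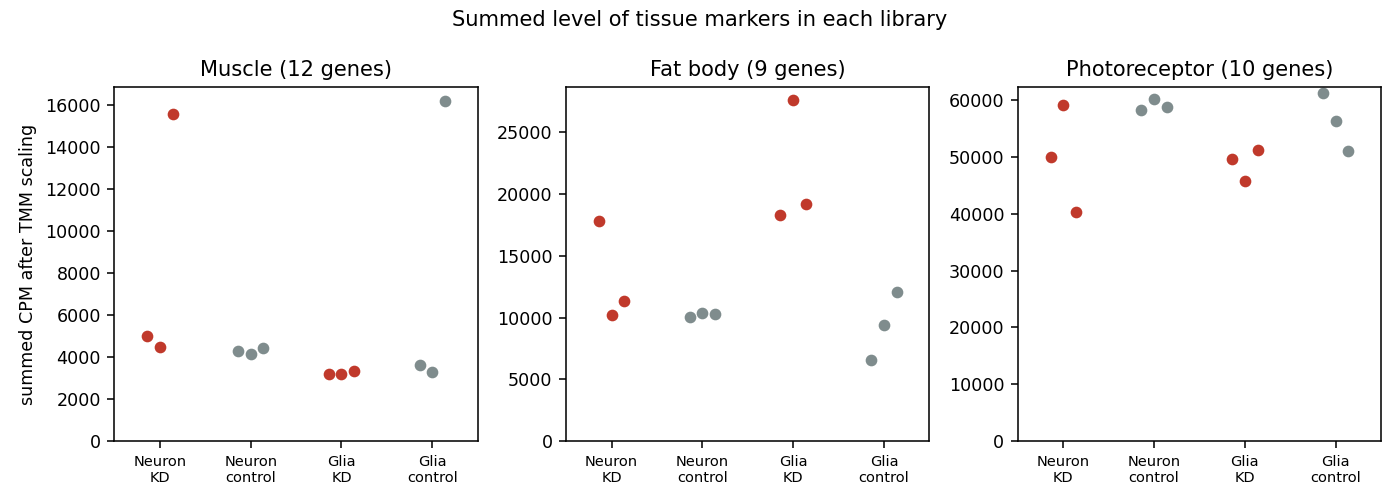
Summed CPM of 12 muscle, 9 fat body and 10 photoreceptor marker genes, 1 point per library, with knockdown (KD, red) left of control (grey) for each driver. One neuron KD library and 1 glia control library stand at 15544 and 16185 CPM of muscle genes, and the glia KD libraries lie above the glia controls in fat body genes.

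PIG-A (FBgn0034270, chromosome 2R from 17737622 to 17739685 of BDGP Release 6) was the targeted gene. It stood at 2.99, 2.54 and 3.06 CPM in neuron knockdown heads and 3.75, 5.19 and 3.62 CPM in neuron control heads. In glia knockdown heads it stood at 3.99, 4.88 and 5.28 CPM, and in glia control heads at 4.81, 4.86 and 4.84 CPM. All 3 neuron knockdown libraries were below their controls, while the glia groups overlapped. Over both drivers the log2 fold change was −0.29 ± 0.14 (standard error, SE; edgeR adjusted p = 0.367), so the transcript did not pass the test in whole heads. None of the other 21 tested genes of GPI anchor synthesis and attachment passed the test either (0 higher and 0 lower), also at an unadjusted p under 0.05, and the median of the 22 genes was 0.01 on the log2 scale, against −0.002 over all genes tested.

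Of 10257 genes tested, 61 were upregulated (0.595%) and 36 were downregulated (0.351%) in knockdown heads, 97 in all (0.946%), with an adjusted p of 0.05 or less and a change of 1.5-fold or more. A gene is said below to have passed this test only where it met both limits. At an unadjusted p under 0.05 without a limit on the fold, 867 genes (8.45%) were higher and 645 (6.29%) were lower. The medians of the called genes on the log2 scale were 1.05 for the 61 upregulated and −0.974 for the 36 downregulated, and 33 and 18 of these changed at least 2-fold. Since both drivers entered the fit, a gene that moved the same way in both was more readily called, and all 97 called genes had the same sign of change under each driver. For 86 of the 97, the 3 knockdown libraries lay on the same side of the 3 controls under both drivers (54 higher and 32 lower). Over all genes tested, 325 (3.17%) did so, 177 higher (1.73%) and 148 lower (1.44%), while 376 (3.67%) were separated under both drivers in opposite directions. Without the 2 libraries high in muscle genes, an alternative chosen after seeing the data, 155 genes were upregulated and 101 downregulated, 95 of the 97 called genes among them. Leaving out 1 library at a time gave 35 to 118 upregulated and 21 to 78 downregulated genes, and 47 of the 97 calls were kept in all 12 such fits. The lowest counts came without glia knockdown library 2 (35 and 21) and the highest without glia control library 3 (118 and 78).

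**Figure D2:**
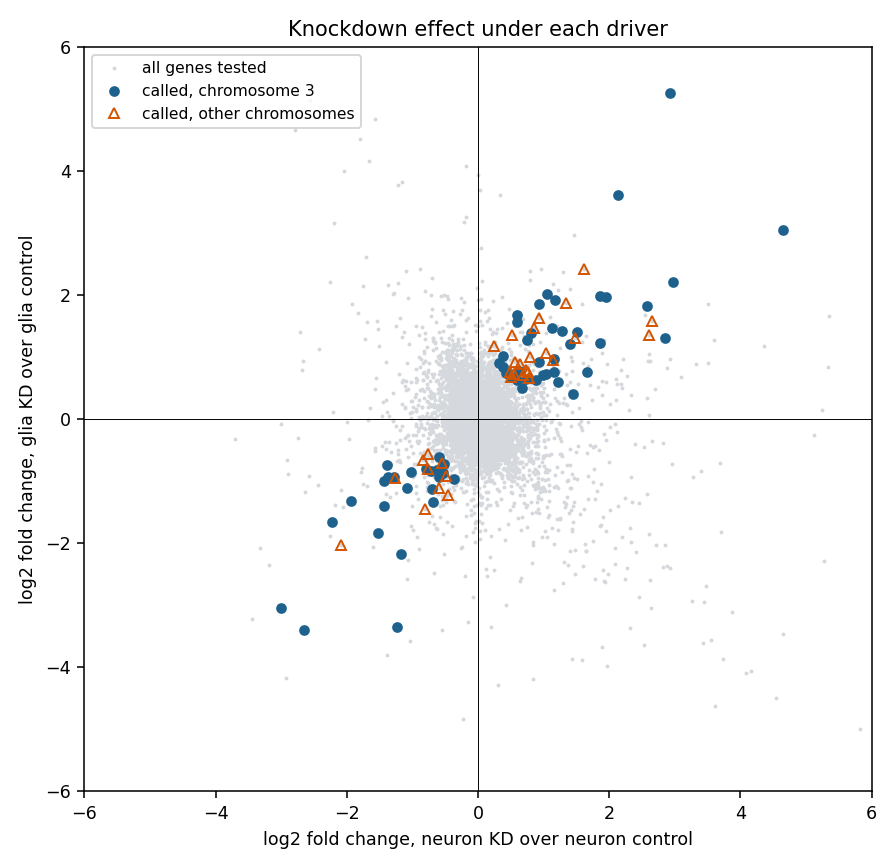
Log2 fold change of knockdown (KD) over control under the neuron driver (horizontal axis) and the glia driver (vertical axis), 1 point per gene, with all 10257 genes tested in grey. The 97 called genes lie in the upper right and lower left quadrants, and mthl8, Sfp77F and CG31380, which are called, fall outside the axes.

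The gene with the sharpest difference was mthl8 (FBgn0052475, chromosome 3L from 22428 to 26308), which encodes a receptor of the Methuselah family. It had 0 counts in all 6 knockdown libraries and 120 to 231 counts in the 6 control libraries, which gave 0 CPM under both drivers in knockdown heads, against 6.0, 7.83 and 6.24 CPM in neuron control heads and 5.28, 6.63 and 4.44 CPM in glia control heads. The floor of 3 counts per library made it at least 52.8-fold lower in knockdown heads (edgeR adjusted p = 5.62e-05). The bound was 61.2-fold under the neuron driver and 45.3-fold under the glia driver. The other 10 tested members of the Methuselah family did not pass the test. Without the 2 libraries high in muscle genes 12 members were tested, and mthl11 rose past the test. Sfp77F, a seminal fluid protein gene on chromosome 3L that was picked after its values were seen, had the reverse pattern, with 6 to 28 counts in the knockdown libraries and 0 counts in all 6 controls, at least 6.42-fold higher (edgeR adjusted p = 0.0266).

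CG12947 (FBgn0037753, chromosome 3R from 9780064 to 9783054) had the smallest adjusted p of all genes. It stood at 29.3, 32.5 and 34.8 CPM in neuron knockdown heads, against 4.44, 3.87 and 3.91 CPM in neuron control heads. With the glia driver it stood at 30.5, 26.7 and 39.4 CPM in knockdown heads, against 6.35, 6.39 and 8.14 CPM in control heads. The knockdown libraries of both drivers reached the same level, and no knockdown library overlapped a control. The log2 fold change was 2.59 ± 0.16 (SE, edgeR adjusted p = 1.76e-05). Its exons overlap the antisense gene asRNA:CR31514, and since it is not stated whether counting used the strand, reads of such partners cannot be told apart. The same limit holds for other genes named below, here with a partner in parentheses. They include CG8478 (MED6), Argl (Tsp29Fb), sing (Axs), asRNA:Eig63F-2 (Eip63F-1), Strica (Pngl), asRNA:CR44179 (CG5112) and Gp93 (CG4951). Of the called genes 34% had exons that overlap another gene, against 39.7% of all genes tested.

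Apl (FBgn0042178, chromosome 3L from 16595181 to 16600459) changed by nearly the same amount under both drivers. It had 3.40, 2.95 and 2.64 CPM in neuron knockdown heads, against 0.730, 0.746 and 0.858 CPM in neuron control heads. The values were 3.37, 2.83 and 3.89 CPM in glia knockdown heads, against 1.10, 0.745 and 0.703 CPM in glia control heads. The groups did not overlap, and the log2 fold change was 1.96 ± 0.15 (SE, edgeR adjusted p = 7.29e-05), with 1.95 under the neuron and 1.97 under the glia driver. The exons of Apl overlap those of CR18217.

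CG15553 (FBgn0039817, chromosome 3R from 31098868 to 31101169) stood at 9.48, 4.81 and 4.87 CPM in neuron knockdown heads and 1.49, 2.2 and 1.52 CPM in neuron control heads. In glia knockdown heads it stood at 11.7, 19.6 and 14.3 CPM, and in glia control heads at 2.97, 4.08 and 4.51 CPM. Its level was higher with the glia driver in both genotypes, and the fold change was similar under both (log2 fold change 1.93 ± 0.21 SE, edgeR adjusted p = 0.00119).

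Among genes with a mean of at least 10 counts, the 3 largest fitted increases were in genes with low levels in control heads. CG31380 (FBgn0051380, chromosome 3R from 25787997 to 25789455) had 141, 40 and 61 counts in neuron knockdown heads and 46, 64 and 58 counts in glia knockdown heads. It had 0, 5 and 0 counts in neuron control heads and 1, 0 and 0 counts in glia control heads, so its log2 fold change of 6.07 ± 0.65 (SE, edgeR adjusted p = 0.00113) rests on 6 control counts in all. CG8757 (FBgn0036380, chromosome 3L from 13840197 to 13842240) had 3.59, 4.0 and 3.74 CPM in neuron knockdown heads, against 0.265, 0.102 and 0.0476 CPM in neuron control heads. It had 2.07, 1.30 and 2.06 CPM in glia knockdown heads, against 0.192, 0 and 0.444 CPM in glia control heads. CG8757 thus rose under both drivers, by 3.83 on the log2 scale (standard error 0.51, edgeR adjusted p = 0.00376), and its exons overlap asRNA:CR46266. Ugt37A3, a UDP-glycosyltransferase, a family that conjugates sugars to small molecules, had 25.1, 3.32 and 8.45 CPM in neuron knockdown heads, against 1.59, 1.32 and 1.95 CPM in neuron control heads. It had 3.55, 7.99 and 4.65 CPM in glia knockdown heads, against 0.110, 0.118 and 0.185 CPM in glia control heads, and its knockdown libraries varied widely without reaching a control (log2 fold change 3.74 ± 0.56 SE, edgeR adjusted p = 0.00706).

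Hao, Sodh1 and Argl, also among the 12 largest increases, encode metabolic enzymes. Hao, a peroxisomal oxidase of hydroxyacids on chromosome 2R, had 199, 83.3 and 106 CPM in neuron knockdown heads, against 47.7, 49.2 and 56.4 CPM in neuron control heads. It had 74.8, 146 and 92.5 CPM in glia knockdown heads, against 24.0, 21.1 and 40.6 CPM in glia control heads. Hao rose by 1.60 on the log2 scale (standard error 0.25, edgeR adjusted p = 0.00939). Sodh1, a sorbitol dehydrogenase on chromosome 3R, rose by 2.08 (edgeR adjusted p = 0.043), and Argl, the argininosuccinate lyase of arginine synthesis on chromosome 2L, by 1.98 (edgeR adjusted p = 0.0279). Both were highest in neuron knockdown library 1, at 418 CPM of Sodh1 and 184 CPM of Argl, and their calls were kept in 5 and 6 of the 12 fits that each left out 1 library, with an adjusted p of up to 0.134 for Sodh1 and 0.107 for Argl. The rest of the 12 were CG8478 (2.19), lncRNA:CR43411 (2.01) and CG5653 (1.55), whose calls were kept in all 12 fits.

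Among the downregulated genes, Su(var)3-3 (FBgn0260397, chromosome 3L from 20226381 to 20230250) encodes the fly homologue of the histone demethylase LSD1. It had 13.5, 14 and 21.4 CPM in neuron knockdown heads, against 76.9, 79.6 and 70.8 CPM in neuron control heads. It had 14.7, 19.8 and 33.6 CPM in glia knockdown heads, against 74.2, 52.4 and 87.6 CPM in glia control heads. Every knockdown library was below every control library of both drivers, and the gene fell by 1.94 on the log2 scale (standard error 0.22, edgeR adjusted p = 0.00133).

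Vps13B (FBgn0039727, chromosome 3R from 29935978 to 29948207) belongs to a family of proteins that carry lipids between membranes. It had 33.2, 30.7 and 29.0 CPM in neuron knockdown heads, against 69.8, 91.0 and 78.6 CPM in neuron control heads. It had 32.9, 34.1 and 33.5 CPM in glia knockdown heads, against 73.2, 52.6 and 64.9 CPM in glia control heads. The 6 knockdown libraries lay within a narrow range at 32.2 ± 1.95 CPM (SD, n = 6), and the control libraries averaged 71.7 ± 12.9 CPM (SD, n = 6). The log2 fold change was −1.15 ± 0.11 (SE, edgeR adjusted p = 0.000374).

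CG3552 (FBgn0035999, chromosome 3L from 9456318 to 9459370) and asRNA:CR45873, which lies within it, fell together. CG3552 had 12.5, 12.5 and 8.53 CPM in neuron knockdown heads and 13.7, 11.8 and 13.9 CPM in glia knockdown heads. Its controls stood at 30.7, 31.0 and 29.4 CPM with the neuron driver and 27.5, 31.3 and 20.2 CPM with the glia driver. The log2 fold change was −1.22 for CG3552 (standard error 0.14, edgeR adjusted p = 0.00119) and −1.62 for asRNA:CR45873 (standard error 0.18, edgeR adjusted p = 0.00119). Their exons overlap, so these are not independent measurements.

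The other decreases among the 12 largest were in genes with low levels. CG33093 fell by 3.12 on the log2 scale, with 0 to 5 counts in each knockdown library and 5 to 95 counts in each control. CG6026 fell by 2.22, and its highest value was 8.69 CPM in glia control library 3, the library high in muscle genes. Without that library and neuron knockdown library 3 its log2 fold change was −1.89 (edgeR adjusted p = 0.0027). The gene sing, needed for fusion of muscle precursors, had 2 to 6 counts in each knockdown library and 13 to 20 counts in each control, and fell by 2.06 (standard error 0.30, edgeR adjusted p = 0.0062). CG14515 (−1.67), CG6761 (−1.66), asRNA:Eig63F-2 (−1.42) and CG13280 (−1.12) complete the 12. Of these 7 genes, the calls of sing and CG6761 were kept in all 12 fits that each left out 1 library, and the others in 8 (CG33093), 5 (CG6026), 3 (CG14515), 2 (asRNA:Eig63F-2) and 11 (CG13280), with an adjusted p of 0.058 for CG13280 without glia knockdown library 3 and of up to 0.135 for asRNA:Eig63F-2.

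**Figure D3:**
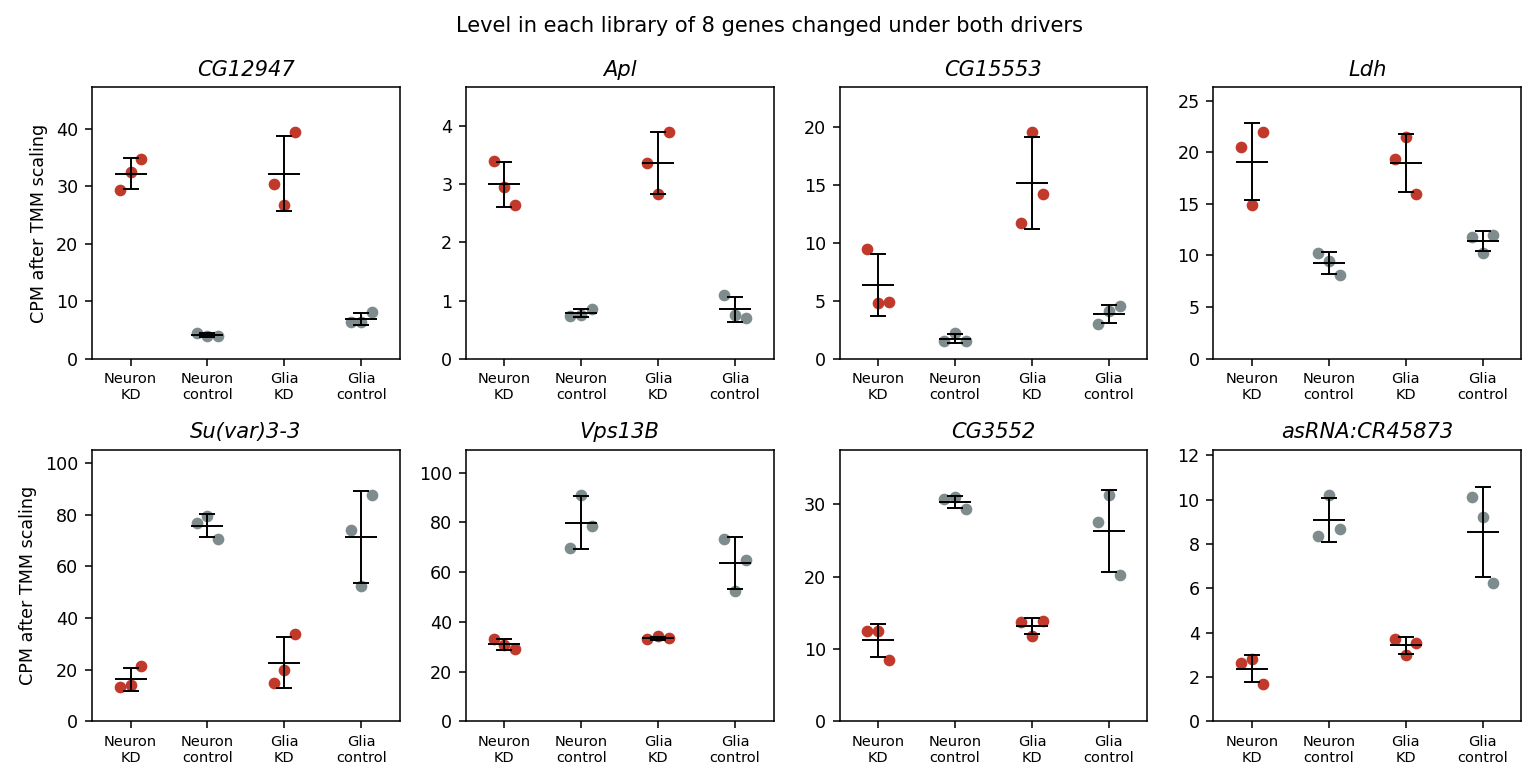
CPM of 8 called genes in each of the 12 libraries, with knockdown (KD, red) left of control (grey) for each driver, and bars for the mean ± SD of 3 libraries. In each panel the KD libraries lie on the same side of the controls under both drivers.

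Of the called genes, 11 were not separated in this way under at least 1 driver, and the 5 with the largest change among them were CG9757, atk, CG9377, asRNA:CR44179 and Strica. CG9757 had 0.491, 1.76 and 0.113 CPM in neuron knockdown heads, against 5.11, 6.21 and 8.20 CPM in neuron control heads. In glia knockdown heads it had 1.16, 0.590 and 1.48 CPM, against 12.2, 13.3 and 1.07 CPM in glia control heads, so that glia control library 3 overlapped the knockdown. The gene atk, which encodes an extracellular matrix protein with leucine-rich repeats, had 6.76, 3.05 and 0.679 CPM in neuron knockdown heads and 0.365, 0.916 and 1.14 CPM in neuron control heads. It had 8.67, 17.0 and 10.9 CPM in glia knockdown heads and 1.07, 1.57 and 0.333 CPM in glia control heads, and here neuron knockdown library 3 overlapped the controls. The exons of atk overlap those of CG42764 and Uhg8, whose reads cannot be told apart from its own. Without the 2 libraries high in muscle genes, the log2 fold change of CG9757 was −3.07 (edgeR adjusted p = 0.00086) and that of atk was 2.95 (edgeR adjusted p = 0.00118). In the 12 fits that each left out 1 library, the call was kept in 3 for CG9757 (adjusted p up to 0.103), 5 for atk (0.0886), 3 for CG9377 (0.102), 4 for Strica (0.105) and 12 for asRNA:CR44179. CG9377, which had 131, 189 and 23.1 CPM in neuron knockdown heads, against 13.2, 23.5 and 17.6 CPM in neuron control heads, also overlapped in neuron knockdown library 3. The caspase gene Strica overlapped in the neuron groups, with 2.19, 2.37 and 2.15 CPM in knockdown heads and 3.42, 3.43 and 2.33 CPM in control heads.

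The 97 called genes were unevenly placed in the genome. Chromosome 3, the arms 3L and 3R, held 66 of them (68.0%), with 40 of the 61 upregulated and 26 of the 36 downregulated genes, while it held 4477 of the 10257 genes tested (43.6%). By arm, 34 called genes lay on 3L, 32 on 3R, 11 on 2L, 12 on 2R, 7 on X and 1 on chromosome 4. As a share of the genes tested there, 1.47% were called on chromosome 3 and 0.536% elsewhere. The 325 genes that were separated in the same direction under both drivers had 61.2% on chromosome 3, and the 376 genes separated in opposite directions had 40.7%. The 334 genes (3.26%) whose knockdown effect differed between the drivers at an adjusted p of at most 0.05 had 40.4% there. The share of called genes on chromosome 3 was between 59.7 and 76.8% when 1 library at a time was left out, 57.1% with DESeq2 and 58.6% without the 2 libraries high in muscle genes. Differences between the RNAi and AttP stocks linked to chromosome 3 cannot be told apart from the knockdown.

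**Figure D4:**
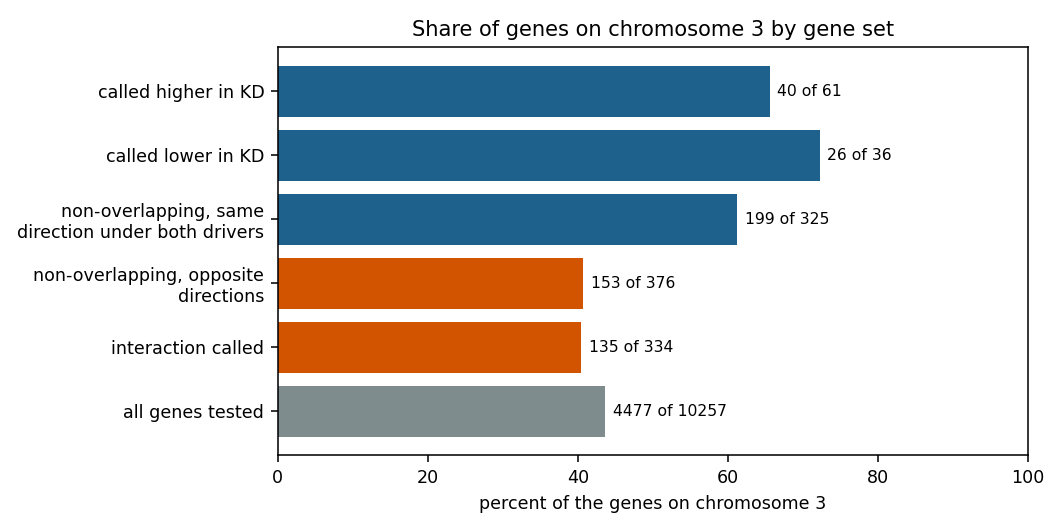
Percent of genes on chromosome 3 in 6 gene sets, with the number of genes beside each bar. The genes called in knockdown (KD) heads over both drivers hold a larger share on chromosome 3 than all genes tested (43.6%), and the genes that differ between the drivers do not.

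The libraries of each driver were also tested on their own, which shares no library between the drivers. The glia libraries alone gave 266 upregulated (2.67%) and 92 downregulated (0.925%) genes of 9951 tested, and the neuron libraries alone 8 and 8 of 9983 (0.0801% each). All 16 genes of the neuron test lie on chromosome 3. Of the 89 genes downregulated in glia knockdown heads that were also tested in the neuron libraries, 29 (32.6%) had all 3 neuron knockdown libraries below the neuron controls, against 11% of all genes. They were 25 of 58 genes (43.1%, background 10.9%) on chromosome 3 and 4 of 31 genes (12.9%, background 11.1%) on the other chromosomes. Of the 263 upregulated genes, 40 (15.2%) had all 3 neuron knockdown libraries above the controls, against 10.7% of all genes, with 26 of 115 (22.6%, background 12.1%) on chromosome 3 and 14 of 148 (9.46%, background 9.61%) elsewhere. Only 113 of the 263 (43.0%) were higher in neuron knockdown heads at all, against 50.8% of all genes, and their median log2 fold change there was −0.09. In the other direction, the 8 genes upregulated in neuron knockdown heads were all separated the same way in the glia libraries (background 16%), and 6 of the 8 downregulated genes were (background 13.6%).

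Some called genes were neighbours. With starts within 50 kb of each other, 18 of the 97 genes formed 8 groups, 6 of them on chromosome 3, and 7 of the 8 groups moved in 1 direction. The spans of the groups held 2 to 18 tested genes. How often such neighbours occur among any 97 tested genes was not tested. On 3L, CG3552, asRNA:CR45873 and CG3434 fell together within 3.05 kb, and CG3434, which was chosen after its values were seen, had 9.07, 8.78 and 10.1 CPM in neuron knockdown heads, against 16.4, 15.7 and 16.4 CPM in neuron control heads. In glia knockdown heads CG3434 had 9.86, 10.2 and 10.8 CPM, against 17.0, 18.2 and 18.9 CPM in glia control heads, a fall of nearly the same size under both drivers (log2 fold change −0.80 ± 0.06 SE, edgeR adjusted p = 5.62e-05). PGRP-LA, of the peptidoglycan recognition family of immunity, CG4461 and the small heat shock gene Hsp23 formed a downregulated group within 47.5 kb of 3L that held 18 tested genes. The upregulated groups were Apl with CG4098 and atk with Tdh on 3L, CG8478 with CG12947 on 3R, CG15093 with CG15096 on 2R, and lncRNA:CR43411 with Adh, the alcohol dehydrogenase, on 2L. The 1 group with both directions was CG34377 (−0.94) and rdhB (1.54), which encodes a retinol dehydrogenase, on 3R.

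The 21 pathway lists held 431 distinct tested genes, and 8 of them (1.86%) passed the test, against 0.946% of all genes tested. The lists were chosen with earlier results of these data known, so this difference, and those of single lists below, are descriptions and not tests. The fit without the 2 libraries high in muscle genes called more genes (155 upregulated and 101 downregulated). Shares given for the fit of all 12 libraries do not apply to its list members. The 8 genes were Ldh, Oat, GstZ1, SsRbeta, Hsc70-3, Gp93 and Drsl5, which rose, and mthl8, which fell.

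In the list of amino acid breakdown, 2 of 32 tested genes rose and 0 fell, while 12 were higher and 0 lower at an unadjusted p under 0.05 (background 8.45 and 6.29%). By sign alone 19 were higher under both drivers, a count without a share over all genes beside it. Of the 32, 4 were separated upward under both drivers (background 1.73%) and 3 in opposite directions (background 3.67%). The median log2 fold change of the list was 0.23, with 0.31 under the neuron and 0.22 under the glia driver, against −0.002 over all genes tested. Oat, the ornithine aminotransferase, had 83.4, 47.7 and 68.1 CPM in neuron knockdown heads, against 28.0, 31.0 and 29.9 CPM in neuron control heads. It had 69.7, 109 and 61.9 CPM in glia knockdown heads, against 41.0, 46.9 and 53.7 CPM in glia control heads, without overlap (log2 fold change 0.96 ± 0.17 SE, edgeR adjusted p = 0.0136). GstZ1, the maleylacetoacetate isomerase of tyrosine breakdown, had 11.6, 8.75 and 10.6 CPM in neuron knockdown heads, against 5.74, 6.92 and 6.0 CPM in neuron control heads. It had 15.0, 17.2 and 15.9 CPM in glia knockdown heads, against 8.72, 11.8 and 10.2 CPM in glia control heads (log2 fold change 0.69 ± 0.10 SE, edgeR adjusted p = 0.00608). Outside the list and chosen after their values were seen, the enzymes of both steps of threonine breakdown were among the called genes. Tdh, the threonine dehydrogenase, had 32.1, 29.0 and 15.6 CPM in neuron knockdown heads and 43.6, 55.0 and 38.2 CPM in glia knockdown heads, against 13.4, 14.5 and 12.1 CPM in neuron control heads and 13.3, 16.1 and 8.06 CPM in glia control heads (log2 fold change 1.40, edgeR adjusted p = 0.0127). Gcat, the glycine C-acetyltransferase, had 54.8, 26.1 and 32.5 CPM in neuron knockdown heads and 30.4, 38.3 and 32.6 CPM in glia knockdown heads, against 13, 11 and 11.8 CPM in neuron control heads and 17.4, 20.9 and 21.8 CPM in glia control heads (log2 fold change 1.21, edgeR adjusted p = 0.0127). The fat body marker sums were higher in glia knockdown heads, and all 7 tested fat body markers were higher under both drivers, with a median log2 fold change of 0.92 and none past the test. Their part in these increases was not tested.

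In glycolysis 1 of 17 tested genes, Ldh, passed the test. Ldh encodes lactate dehydrogenase, which turns pyruvate into lactate, and had 20.5, 14.9 and 21.9 CPM in neuron knockdown heads, against 10.2, 9.46 and 8.15 CPM in neuron control heads. It had 19.4, 21.5 and 16 CPM in glia knockdown heads, against 11.8, 10.3 and 12.0 CPM in glia control heads. No knockdown library overlapped a control, and the log2 fold change was 0.89 ± 0.12 (SE, edgeR adjusted p = 0.0038), with 1.04 under the neuron and 0.74 under the glia driver. The median of the list was 0.22, with 0.59 under the neuron and −0.13 under the glia driver, and without the 2 libraries high in muscle genes the driver medians were 0.41 and 0.15. Of the 18 genes of trehalose, glycogen and the pentose phosphate pathway 0 passed the test, and 7 were higher at an unadjusted p under 0.05 (background 8.45%). Their medians were 0.27 over both drivers, 0.65 under the neuron and 0.03 under the glia driver, and without the same 2 libraries the driver medians were 0.45 and 0.27 and 2 genes (UGP and tobi) passed. The 17 genes of the TCA cycle had medians of −0.02 over both drivers, 0.37 under the neuron and −0.27 under the glia driver, and 0 passed the test. Without those 2 libraries the TCA medians were 0.10 under the neuron and 0.04 under the glia driver, so the contrast between the drivers depended on them.

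Of 23 tested genes of ER folding and glycosylation, 2 rose past the test (Hsc70-3 and Gp93, background 0.595%), and 16 were higher at an unadjusted p under 0.05 (background 8.45%). All 23 had a log2 fold change above 0 in the additive fit, and 20 had one above 0 under both drivers. Of the 23, 2 were separated upward under both drivers (background 1.73%). The median was 0.27, with 0.20 under the neuron and 0.44 under the glia driver. Hsc70-3, the ER chaperone BiP, had 719, 555 and 608 CPM in neuron knockdown heads, against 439, 406 and 490 CPM in neuron control heads. It had 604, 680 and 726 CPM in glia knockdown heads, against 407, 448 and 331 CPM in glia control heads, without overlap (log2 fold change 0.63 ± 0.11 SE, edgeR adjusted p = 0.0123). Without glia control library 3 its log2 fold change was 0.56, under 1.5-fold, and without both libraries high in muscle genes it was 0.58 (edgeR adjusted p = 0.00663), just under the limit. Gp93, the Hsp90 chaperone of the ER, rose by 0.61 (edgeR adjusted p = 0.0456), but its neuron groups overlapped, and the call was kept in 1 of the 12 fits without 1 library. Of 18 genes of the signal recognition particle and the Sec61 channel, which bring new proteins into the ER, SsRbeta passed the test. Its log2 fold change was 0.60 (edgeR adjusted p = 0.0348, kept in 2 of 12 fits), but its neuron groups overlapped. In the list 11 genes were higher and 0 lower at an unadjusted p under 0.05 (background 8.45 and 6.29%). The median was 0.23, with 0.20 under the neuron and 0.37 under the glia driver. Of the 18 genes, 0 were separated upward under both drivers (background 1.73%). Without the 2 libraries high in muscle genes, 5 genes of that list passed (SsRbeta, Sec61alpha, Sec61beta, Sec61gamma and TRAM). In that setting 155 genes were upregulated and 101 downregulated, so the background of the fit with all 12 libraries does not apply. Among 16 genes of ER stress and ER-associated degradation 0 passed, 6 were higher and 6 lower under both drivers, and their median was −0.01.

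**Figure D5:**
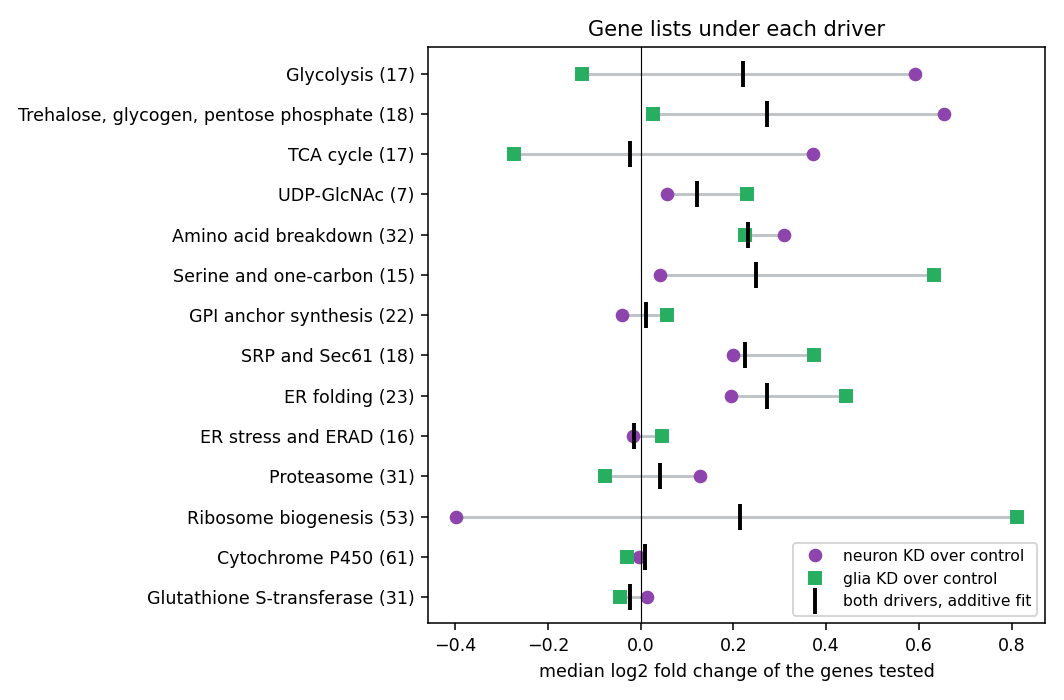
Median log2 fold change of knockdown (KD) over control for 14 gene lists, with the number of tested genes in parentheses, under the neuron driver (circles), under the glia driver (squares) and over both (bars). The medians of amino acid breakdown, ER folding and SRP and Sec61 are above 0 under both drivers, and those of ribosome biogenesis lie on opposite sides of 0, as do those of glycolysis and the TCA cycle, though not without the 2 libraries high in muscle genes.

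Of 53 tested genes of ribosome biogenesis 0 passed the test over both drivers, also at an unadjusted p under 0.05, although the median was 0.22. The median was −0.40 under the neuron driver and 0.81 under the glia driver, 32 genes were separated in opposite directions (background 3.67%), 0 were higher under both drivers, and 33 differed between the drivers at an adjusted p of at most 0.05 (background 3.26%). Without the 2 libraries high in muscle genes the medians were −0.27 and 0.70.

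Of 24 antimicrobial and related peptide genes, Drsl5, a drosomycin-like peptide gene, passed the test. It had 94.4, 78.7 and 115 CPM in neuron knockdown heads, against 48.9, 60.6 and 62.4 CPM in neuron control heads. It had 33.1, 71.3 and 49.6 CPM in glia knockdown heads, against 18.2, 24.0 and 21.1 CPM in glia control heads (log2 fold change 1.01 ± 0.18 SE, edgeR adjusted p = 0.0189). Its adjusted p was 0.0542 without neuron control library 1 and 0.0555 without glia control library 1. In the other direction, AttD (log2 fold change −2.58, edgeR adjusted p = 0.144) and Def (−1.36, 0.0925) did not pass. Their knockdown libraries lay below the controls under both drivers. Without the 2 libraries high in muscle genes, Drsl5 rose and Def fell past the test. None of 31 proteasome genes (median 0.04), 61 cytochrome P450 genes (0.01) or 14 circadian genes (0.02) met both limits of the test. Nor did any of 15 genes of serine and one-carbon metabolism (0.25), 8 lipid phosphate phosphatase genes (0.12) or 7 genes of UDP-GlcNAc synthesis (0.12). Under the neuron and the glia driver the medians were 0.04 and 0.63 for serine and one-carbon metabolism. They were 0.41 and −0.06 for the phosphatases and 0.06 and 0.23 for UDP-GlcNAc synthesis. AsnS and Cbs, 2 of the 15 serine and one-carbon genes, were lower under the neuron and higher under the glia driver, without overlap (background of opposite separation 3.67%). Gnpnat of UDP-GlcNAc synthesis met the limit on the adjusted p but not on the fold (log2 fold change 0.46, edgeR adjusted p = 0.0106). Its knockdown libraries lay above the controls under both drivers. The same limit alone was met by the cytochrome P450 genes Cyp6a2 (−0.46, edgeR adjusted p = 0.0222), Cyp313a1 (0.52, 0.0298) and Cyp6v1 (0.49, 0.0471). At an unadjusted p under 0.05, 6 of the 15 serine and one-carbon genes were higher and 1 lower, and 11 of the 61 cytochrome P450 genes were higher and 11 lower (background 8.45 and 6.29%). Without the 2 libraries high in muscle genes, 3 serine and one-carbon genes (Sardh, Ts and pug) rose past the test and 1 cytochrome P450 gene (Cyp6a8) fell. So did 2 of the 8 lipid phosphate phosphatase genes (CG11425 and CG11426) rise past it. With all 12 libraries CG11426 had a log2 fold change of 1.60 (edgeR adjusted p = 0.0682), with 2.70 under the neuron and 0.49 under the glia driver (edgeR adjusted p of the difference = 0.0081). Of 31 glutathione S-transferase genes GstZ1 alone passed the test over all 12 libraries (median −0.02).

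The genes y, w and v, mutations of which are common in laboratory stocks, did not pass the test over both drivers. The pigment gene y had 4.16, 3.63 and 4.23 CPM in neuron knockdown heads, against 1.79, 2.10 and 1.24 CPM in neuron control heads, without overlap. With the glia driver it had 1.60, 1.81 and 2.33 CPM in knockdown heads, against 1.65, 3.33 and 1.85 CPM in control heads, and the difference between the drivers did not pass the test (edgeR adjusted p = 0.077). The eye pigment transporter gene w had levels that lay apart by driver and overlapped by genotype, with 21.6 to 29.6 CPM in neuron knockdown heads and 23.2 to 25.0 CPM in neuron control heads, and 99.1 to 131 CPM in glia knockdown heads and 109 to 155 CPM in glia control heads. The log2 fold change of w was −0.02 (standard error 0.11, edgeR adjusted p = 0.969), and that of v, the tryptophan oxygenase, was 0.53 (standard error 0.26, edgeR adjusted p = 0.377).

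For 3 of the 97 called genes the effect also differed between the drivers in size. Mitf, a transcription factor of lysosome genes on chromosome 4, had 64.1, 62.8 and 64.7 CPM in neuron knockdown heads, against 51.8, 62.7 and 47.4 CPM in neuron control heads. It had 81.3, 84.8 and 79.2 CPM in glia knockdown heads, against 36.7, 32.0 and 39.8 CPM in glia control heads, and its rise was thus mostly that of the glia libraries. Agpat4, an acyltransferase of phospholipid synthesis, rose by 1.57 under the glia driver and had a log2 fold change of 0.60 under the neuron driver (edgeR adjusted p = 0.161). CG14567 rose by 1.45 under the neuron driver and had a log2 fold change of 0.41 under the glia driver (edgeR adjusted p = 0.0987). Next in order of the p for a difference were CG12947 (edgeR adjusted p = 0.0761) and Ance-4, a relative of angiotensin-converting enzyme (edgeR adjusted p = 0.0687), which did not pass. The calls of Mitf and CG14567 over both drivers were kept in 3 and 7 of the 12 fits without 1 library, with an adjusted p of up to 0.132 and 0.0897, and that of Agpat4 in all 12. Over all called genes, the change was larger under the glia driver for 37 of the 61 upregulated and 23 of the 36 downregulated genes. Of the 61 and the 36, 48 and 28 changed by at least 1.5-fold under both drivers. In the fit with a mean per group, 387 genes were higher (3.77%) and 151 lower (1.47%) within the glia driver and 15 were higher and 15 lower (0.146% each) within the neuron driver.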

How the data were processed

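The authors trimmed the reads, aligned them to BDGP Release 6 (dm6) and deposited counts of reads per FlyBase gene, which are raw counts without normalization. The counting tool and its use of strand are not given in the sources used here. The authors' tables of DESeq2 results (means, fold changes and p-values) were not used. Of 17737 identifiers, 17599 had a name and a position in the Ensembl annotation.

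Counts were fitted in R 4.3.3 with edgeR 4.0.16 by quasi-likelihood with TMM scaling, after its default filter by group, with genotype and driver as additive terms. Adjustment of the two-sided p-values followed Benjamini and Hochberg and covered all 10257 genes. A call required an adjusted p of 0.05 or less and a 1.5-fold change, the study's thresholds. Effects within a driver and their difference came from a fit with a mean per group. P-values measure the spread between these libraries. Chi-square values per gene between replicates were 7.82 to 278, so each library counted as 1 replicate.

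Named were PIG-A, mthl8, y, w and v, the 12 largest increases and decreases among called genes with a mean of at least 10 counts and libraries separated under both drivers, the 5 largest changes among called genes that overlapped, up to 4 called members of each list and the 5 called genes with the smallest p for a difference between drivers. The comparison, gene lists and rules were chosen with earlier results of these data known. On simulated counts of 10257 genes, the additive fit recovered 22 of 67 genes changed 1.5-fold, 58 of 67 changed 2-fold and 63 of 66 changed 4-fold, and called 5 unchanged genes. Genes set at 1.5-fold lie at the limit of a call, so many fall below it by design. The simulated effect was the same under both drivers, and no library was made to stand apart as the 2 high in muscle genes did. These rates need not hold for the real libraries. Alternatives were DESeq2 1.42.0, its size factors in edgeR, no filter, no limit on the fold, other models, a replicate block, each driver alone and leaving out libraries.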

Additional observations from a re-analysis of the deposited data

Results flagged for a closer look

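Among the called genes, 3 had a knockdown effect that differed between the drivers by the interaction test of edgeR. Mitf differed by −0.933 on the log2 scale, neuron effect minus glia effect (standard error 0.15, adjusted p = 0.0085), with a log2 fold change of 0.24 in neuron heads and 1.18 in glia heads. Agpat4 differed by −0.968 (standard error 0.22, adjusted p = 0.0391). CG14567 differed by 1.04 in the other direction (standard error 0.20, adjusted p = 0.0202). All 3 had knockdown libraries above the controls under both drivers.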

How the results depend on the processing

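The counts of called genes moved with the model and the libraries. Against 61 upregulated and 36 downregulated genes, of which 86 were separated under both drivers and 8 were list members, DESeq2 gave 163 and 89 (21 list members), the adjusted p alone 105 and 63 (15), and an average of the 2 drivers' effects 99 and 61 (13). Without the driver as a term, 23 genes were downregulated and 5 list members called. The neuron libraries alone gave 8 and 8 (2 list members, 100% on chromosome 3) and the glia libraries alone 266 and 92 (51 list members, 49.4% on chromosome 3). DESeq2 put 57.1% on chromosome 3. Without the 2 libraries high in muscle genes, chosen after seeing the data, 155 and 101 genes were called, 226 of them separated under both drivers, with 23 list members, and 115 genes passed within the neuron driver against 30.

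Leaving out 1 library at a time gave 35 to 118 upregulated and 21 to 78 downregulated genes, 55 to 172 separated under both drivers, 6 to 20 list members and 59.7 to 76.8% on chromosome 3. The genes called within a driver numbered 13 to 97 for neurons and 260 to 722 for glia, against 538, and the genes that differed between drivers 131 to 539, against 334. Besides glia control library 3 (118 and 78) and glia knockdown library 2 (35 and 21), neuron knockdown library 3 (105 upregulated), neuron control library 1 (39 upregulated), glia control library 1 (40 and 22) and glia knockdown libraries 1 and 3 (21 downregulated each) moved a count by more than 1.5 times.

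Same-numbered knockdown and control libraries did not deviate together, with correlations of −0.152 to 0.148. With a replicate block within each driver 31 and 19 genes were called, 48 separated under both drivers, 4 list members and 78.0% on chromosome 3.

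For the 40 named genes that were called, 646 of 838 repeats over all settings kept the call and 192 lost it. None changed direction. Most of these genes had libraries separated under both drivers, for many as a condition of being named, and the repeats reused the same libraries. A change of direction was thus hardly possible for them, and no conclusion is drawn from its absence. The uncalled y was at −0.248 in the glia libraries alone. The uncalled w was at 0.026 in the neuron libraries alone, and, leaving out 1 library at a time, between −0.096 and 0.070, with 0.002, 0.009, 0.036 and 0.070 in the fits without neuron knockdown library 1, neuron knockdown library 2, glia knockdown library 3 and glia control library 3. The cause of these differences was not tested.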

Other observations

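Some called genes outside the lists and the rule for named genes, chosen after their values were seen, encode enzymes and proteins of lipid metabolism. ACC, the acetyl-CoA carboxylase that starts fatty acid synthesis, had 1685, 958 and 1343 CPM in neuron knockdown heads and 1459, 1735 and 1490 CPM in glia knockdown heads, against 823, 724 and 769 CPM in neuron control heads and 762, 906 and 1268 CPM in glia control heads (log2 fold change 0.73, edgeR adjusted p = 0.036, called in 3 of the 12 fits without 1 library). Lsd-1, a perilipin on the surface of lipid droplets, had 268, 264 and 354 CPM in neuron knockdown heads and 359, 336 and 423 CPM in glia knockdown heads, against 501, 377 and 493 CPM in neuron control heads and 577, 799 and 595 CPM in glia control heads, and fell by 0.72 (edgeR adjusted p = 0.0127, called in all 12 fits).

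Among genes of the nervous system, Syn, which encodes the synaptic vesicle protein synapsin, had 513, 542 and 555 CPM in neuron knockdown heads and 475, 450 and 535 CPM in glia knockdown heads. Its controls stood at 340, 328 and 338 CPM with the neuron driver and 358, 278 and 395 CPM with the glia driver (log2 fold change 0.59, edgeR adjusted p = 0.0083, called in 6 of the 12 fits without 1 library). The odorant receptor gene Or63a fell by 0.77 (edgeR adjusted p = 0.00474) and the gustatory receptor gene Gr64a rose by 1.54 (edgeR adjusted p = 0.0123), and both were called in all 12 fits.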
